A study of Homo sapiens with 10 samples.

Results

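The EGR, NR4A and IER genes are immediate early genes, and the 9 members described here are EGR1, EGR2, EGR3, NR4A1, NR4A2, NR4A3, IER2, IER3 and IER5. They were taken by symbol from the 32152 genes of the count table; the rule uses no measured value, but the set was chosen with earlier results of these data known. The data were polyA RNA-seq counts of WAe009-A (H9), an established human embryonic stem cell line, in 5 libraries labelled as a knockout (KO, KCNH2-/-) and 5 of the wild type (WT). KCNH2 encodes hERG1, a voltage-gated potassium channel, and the study asked which transcripts depend on it in undifferentiated cells. The genotype field of the labels calls the edited cells a knockdown, while their titles read 57-KO with a replicate number; the meaning of the prefix is not labelled. WT cells were kept in TeSR-E8 and KO cells in mTeSR plus, both on Matrigel, so medium and genotype cannot be told apart in any comparison below. The sources used here give neither the number of edited clones nor the position of the edit. Whether replicates came from separate cultures is not labelled, and the p-values below cover only the spread between libraries, which may be technical.

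Immediate early genes are transcribed within minutes of a stimulus, from promoters read by factors already present in the cell, such as SRF with its ternary complex partners downstream of ERK, or CREB downstream of cAMP and calcium. Their mRNAs are short-lived. EGR proteins are zinc finger transcription factors held in check by the corepressors NAB1 and NAB2. NR4A proteins are nuclear receptors that act without a known physiological ligand, some of them as partners of RXR. IER2, IER3 and IER5 are small proteins unrelated to either family: IER3 modulates survival and ERK signalling, and IER5 binds the PP2A phosphatase and promotes activity of the heat shock factor HSF1.

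The upstream sequences of EGR1, EGR2 and IER5 are shown as examples of windows with and without the CArG box, a motif read by SRF. They were chosen after the motifs and the members' values were seen, and a relation of the motif to the changes in expression was not tested. The 250 bases before the transcript start were taken from RefSeq (GRCh38.p14), 5′ to 3′ on the gene's strand. RefSeq windows were matched for 6 members (EGR1, EGR2, NR4A1, NR4A3, IER2 and IER5), in 9 windows. Capitals mark CArG boxes and the core of the cAMP response element, TGACG on either strand (written CGTCA where it lies on the other strand).
EGR1, chr5:138465229-138465478, plus strand: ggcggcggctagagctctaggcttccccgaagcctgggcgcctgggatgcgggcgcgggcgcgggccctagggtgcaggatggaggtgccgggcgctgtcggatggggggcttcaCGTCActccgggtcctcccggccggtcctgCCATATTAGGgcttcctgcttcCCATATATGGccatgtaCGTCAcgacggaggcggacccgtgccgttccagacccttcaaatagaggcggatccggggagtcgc
EGR2, chr10:62816367-62816616, minus strand: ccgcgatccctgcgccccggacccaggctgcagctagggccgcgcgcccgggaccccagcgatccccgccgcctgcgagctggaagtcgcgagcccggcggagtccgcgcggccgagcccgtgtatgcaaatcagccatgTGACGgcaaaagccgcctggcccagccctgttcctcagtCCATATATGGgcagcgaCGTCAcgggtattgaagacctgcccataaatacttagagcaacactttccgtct
IER5, chr1:181088450-181088699, plus strand: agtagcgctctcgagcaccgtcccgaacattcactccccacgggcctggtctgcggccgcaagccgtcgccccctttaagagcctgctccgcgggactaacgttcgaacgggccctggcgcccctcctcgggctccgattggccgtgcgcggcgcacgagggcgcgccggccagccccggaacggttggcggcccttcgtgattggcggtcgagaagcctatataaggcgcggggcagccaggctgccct
EGR1 held 2 CArG boxes, CCATATTAGG at 105 to 96 bases and CCATATATGG at 83 to 74 bases before the start. EGR2 held 1, CCATATATGG at 71 to 62 bases before the start, in 1 of its 3 windows. The CArG box was searched only as CC, 6 bases of A or T, then GG, and forms that differ from it were not searched. No CArG box of this form was found in the windows of NR4A1, NR4A3, IER2 and IER5. Of the 250 bases, 223 of the IER2 window and 30 of the NR4A3 window lie in annotated exons. The NR4A1 windows precede starts at 52022832 and 52037715 of a gene that runs to 52059507. Any other NR4A1 start was not searched. IER3, EGR3 and NR4A2 were not searched. The window of FOS, an immediate early gene outside the 3 families that rose by 4.36 on the log2 scale, held no CArG box. Of its bases, 54 lie in annotated exons. Sequence farther than 250 bases before a start was not searched for any gene, so a site there would be missed. Of 35116 upstream windows of the same length in the table, 1.16% held a CArG box and 0.0313% held 2 or more. TGACG was found in 1 window each of EGR1, EGR2, IER2 and NR4A3, against 21.2% of all windows. The full palindrome TGACGTCA, which contains TGACG, and GCGGGGGCG, a form of the EGR binding sequence, were searched on both strands. Neither was found in any of the 9 windows, against 1.65% and 4.72% of all windows. Other forms of the EGR sequence were not searched. A match is a string of letters and not a measured binding site.

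Levels are given as CPM, counts per 1000000 of the TMM-adjusted library size, and as mean ± SD over 5 libraries in a group. Library totals ran from 28615751 to 47319933 counts. The limit that a count of 0 leaves (3 counts) was 0.0634 to 0.105 per 1000000 of these totals, without the TMM adjustment, and covers counting error only. KCNH2 itself measured 12.17 ± 1.001 CPM in KO against 15.5 ± 0.75 CPM in WT and fell by 0.35 on the log2 scale (edgeR adjusted p = 0.000648); whole-gene counts do not check the loss of the protein. On log2 CPM, KO replicate 3 and WT replicates 2 and 3 lay apart from the other libraries of their groups on the second principal component (-59.1, -10.1 and -32.2, against -2.26 to 35.8 in the other 7). The summed level of 10 pluripotent stem cell markers was 7893 to 8252 CPM in KO and 7046 to 7334 CPM in WT. Of the 10, 5 rose, against 21.9% of all tested genes, and the other 5 did not pass. POU5F1, the largest part of the sum, rose from 2617 ± 64.0 to 3214 ± 229 CPM, so the sum largely follows that gene.

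Of the 9 members, 7 had enough counts to be tested, and of these 3 rose (EGR1, EGR2 and IER3), 1 fell (NR4A2) and 3 did not pass (NR4A1, IER2 and IER5). EGR3 and NR4A3 fell below the filter on low counts. Calls are from edgeR's quasi-likelihood test at a Benjamini-Hochberg adjusted p under 0.05 over 19163 genes, of which 46% were called, 21.9% as higher and 24.1% as lower in KO. The share of members called is near that of all genes, and is not a result about the members. The EGR1 difference was larger than the absolute log2 fold change of 99.65% of tested genes. The KO and WT libraries did not overlap for EGR1, EGR2 and NR4A2, and did not overlap for 34% of all tested genes. In bulk RNA, a change in the share of cells that express a gene and a change in RNA per cell cannot be told apart.

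EGR1, which is induced by growth factors and serum, was the member that changed most. The 5 KO libraries held 64.9, 77.1, 56.6, 71.6 and 73.2 CPM in the order of their replicate numbers. The WT libraries held 9.79, 8.54, 10.2, 9.24 and 9.80 CPM. Every KO library lay far above every WT library, with no overlap. The means were 68.7 ± 8.06 and 9.52 ± 0.65 CPM, a ratio of 7.22 and a log2 fold change of 2.85 ± 0.08 (SE, with an edgeR adjusted p of 5.49e-10). These CPM rested on 12114 counts in KO and 1867 in WT. The gene spans chromosome 5, 138465490 to 138469315, on the plus strand (GENCODE 29, GRCh38). It was the only member that also passed the test against a log2 fold change of 1 (adjusted p = 1.17e-08), which 0.918% of tested genes passed.

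EGR2, best known for its role in hindbrain patterning and myelination, was far below EGR1 in CPM in both groups. In KO the libraries held 1.34, 2.25, 2.04, 1.83 and 1.65 CPM. In WT the libraries held 0.481, 1.03, 1.09, 1.10 and 0.851 CPM. The groups came close, with KO replicate 1 at 1.34 CPM just above the highest WT library, and WT replicate 1 lay lowest of all. EGR2 rose from 0.911 ± 0.261 to 1.82 ± 0.350 CPM, a log2 fold change of 0.998 ± 0.22 (SE, with an edgeR adjusted p of 0.00266), on 324 counts in KO and 181 in WT.

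EGR3, a family member studied mainly in neurons, muscle spindles and lymphocytes, had few counts. Its KO libraries held 6, 18, 36, 49 and 28 counts, or 0.202, 0.501, 1.004, 1.25 and 0.798 CPM. Its WT libraries held 9, 7, 7, 5 and 5 counts, or 0.228, 0.145, 0.156, 0.145 and 0.170 CPM. KO replicate 1 lay inside the WT range and the other 4 KO libraries lay above it. Because EGR3 did not pass the filter, it was compared by an exact two-sided permutation test of log2 CPM, chosen after its values were seen, which gave p = 0.0159 (the smallest this design allows is 0.00794). EGR3 could pass a filter on low counts only through KO, where it is high, so its values in filtered fits give no support of their own. In a fit without a filter, in which 26% of genes were called, its log2 fold change was 2.16 (edgeR adjusted p = 0.00113). The authors' deposited table gives EGR3 a log2 fold change of 0.88 and an adjusted p of 3.81e-05, and EGR1 a log2 fold change of 2.74. Its values for EGR1, EGR2, IER3 and NR4A2, the members called here, also lay nearer 0 than those of the main fit. EGR2 stood at 0.74, NR4A2 at -0.86 and IER3 at 0.60 there, against 0.998, -1.03 and 0.78 in the main fit. NR4A1, IER2 and IER5, which were not called, stood at 0.20, 0.10 and 0.05 there, against 0.20, 0.09 and 0.04. The reason was not tested.

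**Figure D1:**
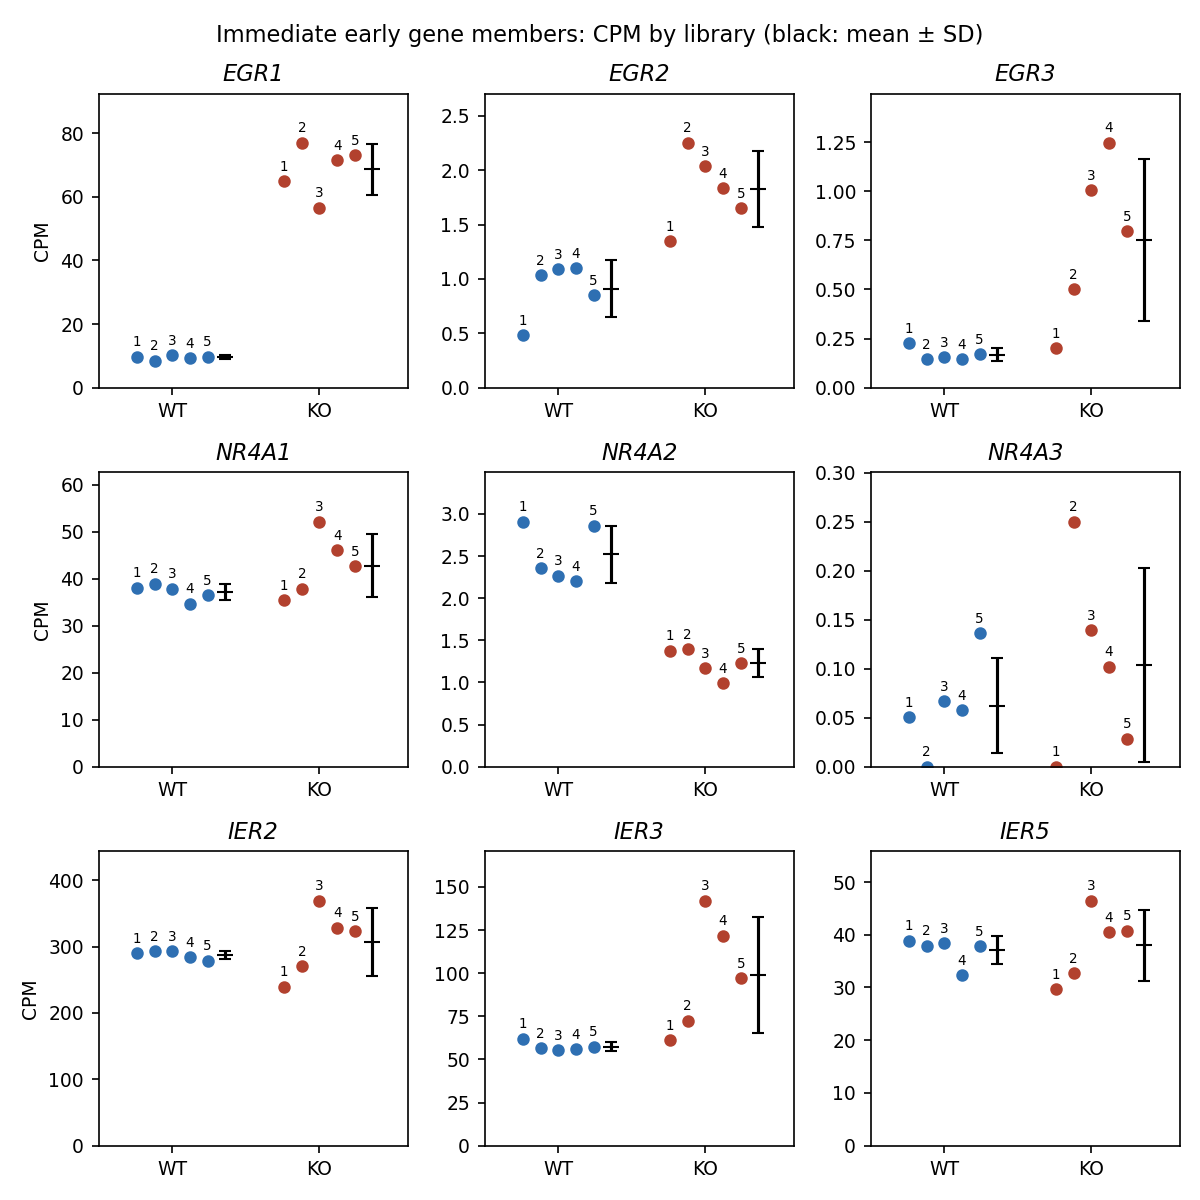
CPM of the 9 members in each library, one panel a gene, with WT libraries in blue, KO libraries in red, replicate numbers above the points and the mean ± SD of 5 libraries in black; every vertical axis starts at 0. EGR1 stands at 56.6 to 77.1 CPM in KO and 8.54 to 10.2 CPM in WT, NR4A2 is lower in every KO library, and the KO libraries of NR4A1, IER2, IER3 and IER5 are spread more widely than those of WT.

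Of the NR4A receptors, NR4A2 passed the test, NR4A1 did not and NR4A3 was not tested. NR4A2, also known as NURR1 and required for midbrain dopamine neurons, fell. In KO the libraries held 1.38, 1.39, 1.17, 0.994 and 1.23 CPM. In WT the libraries held 2.91, 2.36, 2.27, 2.20 and 2.86 CPM, so that the highest KO library (1.39) was below the lowest WT library (2.20). The means were 1.23 ± 0.164 and 2.52 ± 0.338 CPM, and NR4A2 fell by 1.03 on the log2 scale (SE 0.13, edgeR adjusted p = 6.99e-05). The NR4A2 values rested on 215 counts in KO and 491 in WT.

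NR4A1, also known as NUR77, was the abundant member of its family. Its KO libraries held 35.4, 37.9, 52.2, 46.0 and 42.6 CPM and its WT libraries 38.1, 39.0, 37.9, 34.7 and 36.5 CPM. KO replicates 1 and 2 lay within the WT range and replicates 3, 4 and 5 above it. The NR4A1 log2 fold change was 0.20 ± 0.09 (SE, with an edgeR adjusted p of 0.0861), which did not pass. It passed without KO replicate 1 (0.28, adjusted p = 0.0178), without KO replicate 2 (0.24, adjusted p = 0.0492) and in the DESeq2 Wald test (0.21, adjusted p = 0.0489). NR4A3, also known as NOR1, was near the limit of detection, with 19 counts over the 5 KO libraries and 11 over the WT libraries. In KO the libraries held 0, 9, 5, 4 and 1 counts and its WT libraries 2, 0, 3, 2 and 4 counts. A difference in NR4A3 was not detectable at this depth (exact two-sided permutation p = 0.571).

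Among the IER genes only IER3 passed the test. IER3, also known as IEX-1, held 61.1, 72.4, 142, 122 and 96.9 CPM in the KO libraries. It held 62.1, 56.5, 55.4, 56.0 and 57.4 CPM in the WT libraries. KO replicate 1 lay inside the WT range, while KO replicate 3 was 2.32 times KO replicate 1. The means were 98.8 ± 33.6 and 57.5 ± 2.71 CPM, a log2 fold change of 0.78 ± 0.19 (SE, with an edgeR adjusted p of 0.00527). IER3 kept this call with every single library left out, at log2 fold changes from 0.62 to 0.93, and stood at 0.64 (adjusted p = 0.0171) after a correction for transcript length and GC content.

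IER2, the most abundant member, encodes a nuclear protein induced by growth factors. Its KO libraries held 239, 271, 370, 328 and 324 CPM, and its WT libraries 290, 293, 293, 284 and 279 CPM. KO replicates 1 and 2 were below every WT library and replicates 3, 4 and 5 above every WT library, so the near-equal means of 306 ± 51.3 and 288 ± 6.25 CPM cover KO libraries on both sides of WT. The IER2 log2 fold change was 0.09 ± 0.09 (SE, with an edgeR adjusted p of 0.460). Of 12211 tested genes with a mean of at least 5 CPM, 26 (0.213%) had these 5 KO libraries split around the WT range in the same way, a pattern chosen after the values were seen.

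IER5 followed a similar order. In KO the libraries held 29.7, 32.7, 46.5, 40.5 and 40.7 CPM and its WT libraries 38.8, 38.0, 38.4, 32.4 and 37.8 CPM. KO replicate 1 was below and KO replicates 3, 4 and 5 were above the WT range. The IER5 log2 fold change was 0.04 ± 0.11 (SE, with an edgeR adjusted p of 0.800), with means of 38.0 ± 6.75 and 37.1 ± 2.66 CPM.

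The KO libraries spread more widely than the WT libraries for all 5 members with a mean of at least 5 CPM. The coefficient of variation of EGR1 was 11.7% in KO and 6.87% in WT. The coefficient of variation of IER2 was 16.7% in KO and 2.17% in WT, that of IER3 33.98% and 4.71%, that of NR4A1 15.6% and 4.47% and that of IER5 17.8% and 7.19%. Medians over the 12211 genes were 5.66% in KO and 4.07% in WT. NR4A1, IER2 and IER3 placed the KO replicates in one order, highest first: 3, 4, 5, 2 and 1. IER5 differed from it only in replicates 4 and 5, and EGR3 only in replicates 3 and 4. EGR1 was lowest in KO replicate 3 and highest in KO replicate 2. KO replicates 1 and 2 were both below replicates 3, 4 and 5 in 5 of the 9 members (EGR3, NR4A1, IER2, IER3 and IER5). The same held in 22 of 33 other immediate early genes of at least 5 CPM, and in 24.7% of all genes of that level. EGR3 lay below that level, and of the 5 members that reached it only EGR1 did not follow the pattern. The pattern was chosen after the values were seen. The summed CPM of 7 primitive streak and mesendoderm markers ran 10.7, 13.4, 23.0, 19.7 and 17.2 in KO replicates 1 to 5. In WT the sum ran from 7.18 to 9.41. The KO order was that of IER3. Of the 4 tested, WNT3, NODAL and CER1 rose, and MIXL1 did not pass (log2 fold change 0.004, edgeR adjusted p = 0.989). Of all tested genes, 21.9% rose. The remaining markers were below the filter on low counts. In KO, NODAL (9.46 CPM) and WNT3 (3.97 CPM) gave most of the sum. The part of these markers in the result was not tested.

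**Figure D2:**
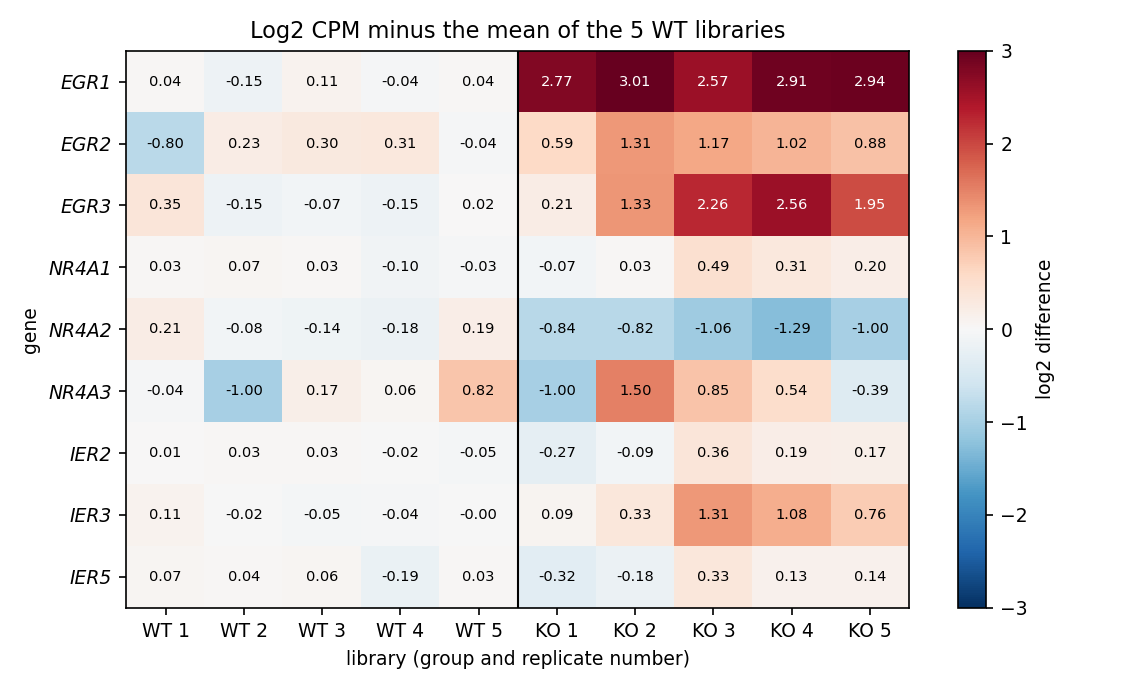
Log2 CPM of each member (rows) in each library (columns, WT left of the line and KO right) minus the mean of the 5 WT libraries, with the colour scale from -3 (blue) to 3 (red) and the value printed in each cell. EGR1 is 2.57 to 3.01 above the WT mean in every KO library, while IER2 runs from -0.27 in KO replicate 1 to 0.36 in KO replicate 3.

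When each member's log2 CPM was centred within its group, NR4A1, IER2, IER3 and IER5 were correlated with one another over the 10 libraries (Pearson's r from 0.908 to 0.961). EGR1 had r of -0.449 with NR4A1, -0.323 with IER2, -0.357 with IER3 and -0.269 with IER5. These values describe libraries that share their depth and scaling, and most of the spread in them comes from KO. Genes outside the members, named next, reached higher r with NR4A1 and with IER2, so such values are not particular to the members. How many genes reach them was not counted. Among 12206 other genes of at least 5 CPM, those most like NR4A1 in the same measure were DDIT3 (r = 0.991), which encodes the stress factor CHOP, ALDH2 (0.986), PIM3 (0.986), SIN3B (0.980) and KCMF1 (0.980). DDIT3 also rose, from 4.17 to 10.8 CPM (log2 fold change 1.37, edgeR adjusted p = 0.00199). Those most like IER2 were TKT (0.985), BCAR1 (0.985), BLVRB (0.982), MNAT1 (0.981) and POLRMT (0.981). Those most like EGR1 were ARMCX5 (0.915), the potassium channel subunit gene KCNAB3 (0.871), ANKRD36B (0.870), ERCC8 (0.865) and VPS33B (0.862). All of these are the highest values picked from 12206 genes over 10 libraries. How high r would run by chance in such a pick was not tested, so they are not shown to be neighbours of EGR1. ARMCX5, the closest to EGR1 within groups, had a log2 fold change of only 0.08 between them (edgeR adjusted p = 0.201). KCNAB3 fell by 0.58 (edgeR adjusted p = 0.000275), while EGR1 rose. ANKRD36B and ERCC8 rose by 0.32 and 0.18, and VPS33B stood at 0.07 without passing.

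Levels were compared between genes per kilobase of 1 transcript a gene (CPM per kb). In WT the order was IER2 (98.1 CPM per kb), IER3 (46.2), NR4A1 (13.9), IER5 (8.85), EGR1 (3.03), NR4A2 (0.725), EGR2 (0.307), EGR3 (0.0389) and NR4A3 (0.0109), and no neighbours in this order overlapped in their libraries. In KO, EGR1 moved from the fifth to the third place with 21.9 CPM per kb, and its libraries overlapped those of NR4A1 (16.0). EGR2 (0.615 CPM per kb) and NR4A2 (0.355) changed places, without overlap in either group. IER2 (104 CPM per kb) and IER3 (79.4) overlapped in KO, as did NR4A2 and EGR3 (0.173).

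Summed CPM over the EGR genes was 71.3 ± 8.10 in KO and 10.6 ± 0.638 in WT. The NR4A sum was 44.1 ± 6.56 in KO and 39.8 ± 1.75 in WT, and the IER sum 443 ± 90.9 in KO and 382 ± 8.50 in WT. Most of the EGR sum was EGR1 (68.69 CPM in KO, 9.519 in WT). Most of the NR4A sum was NR4A1 (42.82 and 37.25 CPM). The EGR and NR4A sums follow those genes, and the fall of NR4A2 does not show in the NR4A sum. The sum over the 9 members was 433, 495, 671, 612 and 581 CPM in the KO libraries and 420 to 443 CPM in WT. KO replicate 1 lay within the WT range for this sum and the other 4 KO libraries above it. IER2 gave 65.5% to 67.7% of the sum in WT and 53.6% to 55.7% in KO.

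**Figure D3:**
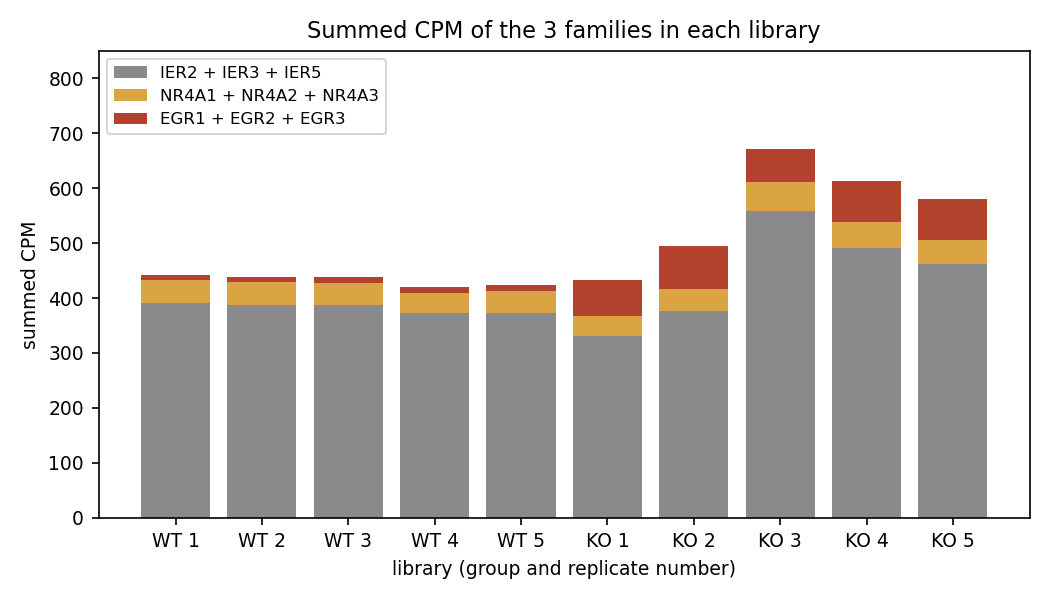
Summed CPM of the IER (grey), NR4A (yellow) and EGR (red) genes in each library, stacked, WT left and KO right. The EGR part is 59.7 to 79.9 CPM in KO and 9.71 to 11.5 CPM in WT, and the IER part runs from 330 CPM in KO replicate 1 to 558 CPM in KO replicate 3.

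Many immediate early genes are compact, with few introns. The transcript used had 3 exons or fewer for 6 of the 9 members (EGR1, EGR2, EGR3, IER2, IER3 and IER5), against 13.8% of 14735 tested protein-coding genes, and the NR4A transcripts had 8 or 9. The AUUUA pentamer, part of the AU-rich elements that shorten mRNA lifetime, occurred 4.82 times per kb in IER3, more than in 99.4% of those genes, and 2.39 times per kb in IER5. It was absent from the IER2 transcript, and EGR1 had 0.64 per kb against a median of 0.932. EGR2, which rose with EGR1 and IER3, had 0.67 per kb. On GRCh38 (GENCODE 29) the other members lie on different chromosomes: EGR2 on chromosome 10 (62811996 to 62919900, minus strand), NR4A1 on 12 (52022832 to 52059507, plus), NR4A2 on 2 (156324432 to 156342348, minus), IER2 on 19 (13150415 to 13154908, plus), IER3 on 6 (30743199 to 30744554, minus) and IER5 on 1 (181088712 to 181092899, plus). EGR3 lies on 8 (22687659 to 22693302, minus) and NR4A3 on 9 (99821855 to 99866891, plus). The median transcript length was 3138 bases over the members and 3151 over tested protein-coding genes. Genes annotated on the opposite strand overlap IER3 (IER3-AS1) and IER2 (AC011446.2), with at most 21 and 11 counts in any library, and overlap EGR3 and NR4A1 with at most 2 counts; the sources used here do not give the strand setting of the counting.

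Of 9 tested relatives and binding partners, 2 rose, 3 fell and 4 did not pass (median log2 fold change 0.03, against 0.002 over all tested genes). Over all tested genes, 21.9% were called higher and 24.1% lower in KO. The counts of this list and of those below stand beside these shares, and no list was tested as a set. The EGR corepressors moved in opposite directions: NAB2, itself induced by EGR proteins, rose from 30.2 ± 1.03 to 43.1 ± 5.68 CPM (edgeR adjusted p = 0.000242), and NAB1 fell from 55.4 ± 2.13 to 38.9 ± 2.97 CPM (edgeR adjusted p = 1.17e-05). RXRA, a heterodimer partner of NR4A1 and NR4A2, fell by 0.17 on the log2 scale and RXRB stood at 0.04 (adjusted p = 0.466). Of the PP2A B55 subunits, PPP2R2C fell by 0.41 and PPP2R2D rose by 0.14, while PPP2R2A and PPP2R2B stood at 0.03 and 0.02 without passing. IER5L had a log2 fold change of 0.50 (adjusted p = 0.0641) and EGR4 was below the filter, at 0.200 CPM in KO and 0.0166 CPM in WT. The count of rises was 1 without WT replicate 1, 3 or 5, and 3 without KO replicate 1.

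Of 10 genes described as EGR1 targets, 5 rose and 2 fell (median log2 fold change 0.17), against 21.9% and 24.1% of all tested genes. NAB2 rose by 0.52 and PDGFA, a growth factor gene, from 36.3 ± 2.69 to 49.8 ± 6.31 CPM (edgeR adjusted p = 0.000812), while ID3 and FN1 fell by 0.23 and 0.19. The count of rises was 7 without KO replicate 1, 6 without KO replicate 2 and 4 without KO replicate 5. It was 2 without KO replicate 3 or 4 or without WT replicate 1, 2, 3 or 5. It was 3 without WT replicate 4 or with the replicate number as a block.

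The other immediate early genes cross into the FOS and JUN families. Of 36 tested, 23 rose, 3 fell and 10 did not pass, with a median log2 fold change of 0.65 against 0.20 over the 7 tested members and 0.002 over all tested genes. FOS rose from 3.44 ± 0.522 to 70.6 ± 4.44 CPM, FOSB from 0.623 ± 0.0444 to 15.0 ± 4.42 CPM, and the phosphatase genes DUSP1 and DUSP2 by 1.04 and 0.79 on the log2 scale. The summed level of the list was 1473, 1604, 2864, 2428 and 1892 CPM in KO replicates 1 to 5 and 1261 to 1308 CPM in WT. The count of falls was 1 without KO replicate 2.

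Of 6 SRF, ternary complex and MRTF genes, 2 rose and 2 fell (median log2 fold change 0.03). SRF rose from 138 ± 1.44 to 170 ± 28.5 CPM (edgeR adjusted p = 0.0188) and its partner ELK1 by 0.24. ELK3 fell from 31.5 ± 0.529 to 21.7 ± 1.28 CPM and MRTFB by 0.30, and ELK4 and MRTFA stood at -0.002 and 0.06. Of 16 genes of the ERK cascade, 3 rose and 7 fell (median -0.12): MAPK3, which encodes ERK1, fell from 44.8 ± 1.23 to 30.7 ± 1.44 CPM, RPS6KA2 by 0.22 and ARAF by 0.18, and MAP2K2 rose by 0.16.

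Of 15 tested genes that ERK induces as feedback, 7 fell, 7 did not pass and 1 rose, and the gene that rose was IER3, itself a member (median -0.16). DUSP6, the ERK phosphatase, fell from 655 ± 28.2 to 464 ± 58.1 CPM (edgeR adjusted p = 0.000209), SPRY2 by 0.32, DUSP4 by 0.30 and SPRED3 by 0.52. Of 14 genes of the CREB pathway or induced by cAMP, 8 fell and 1 rose (median -0.11). PDE4B, which degrades cAMP, fell from 17.6 ± 1.06 to 6.07 ± 0.849 CPM (edgeR adjusted p = 1.68e-07), CRTC3 by 0.36, CAMK4 by 0.32 and CREBBP by 0.18.

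Of 8 tested NF-kB target genes, chosen because NF-kB is a known inducer of IER3, 3 fell and 5 did not pass (median 0.06); without KO replicate 1 or 2, 2 rose. NFKB1 fell by 0.32, TRAF1 by 0.51 and TNFAIP3 by 0.37, and ICAM1 stood at 0.42 (adjusted p = 0.0568). Of 10 HSF1 target genes, 5 rose and 4 fell (median 0.07). HSPA1A fell from 68.3 ± 0.833 to 31.9 ± 3.69 CPM and HSPA1B from 134 ± 3.78 to 96.2 ± 7.57 CPM, near-identical genes between which reads may be shared, while HSPE1 rose by 0.64 and HSPB1 by 0.44.

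**Figure D4:**
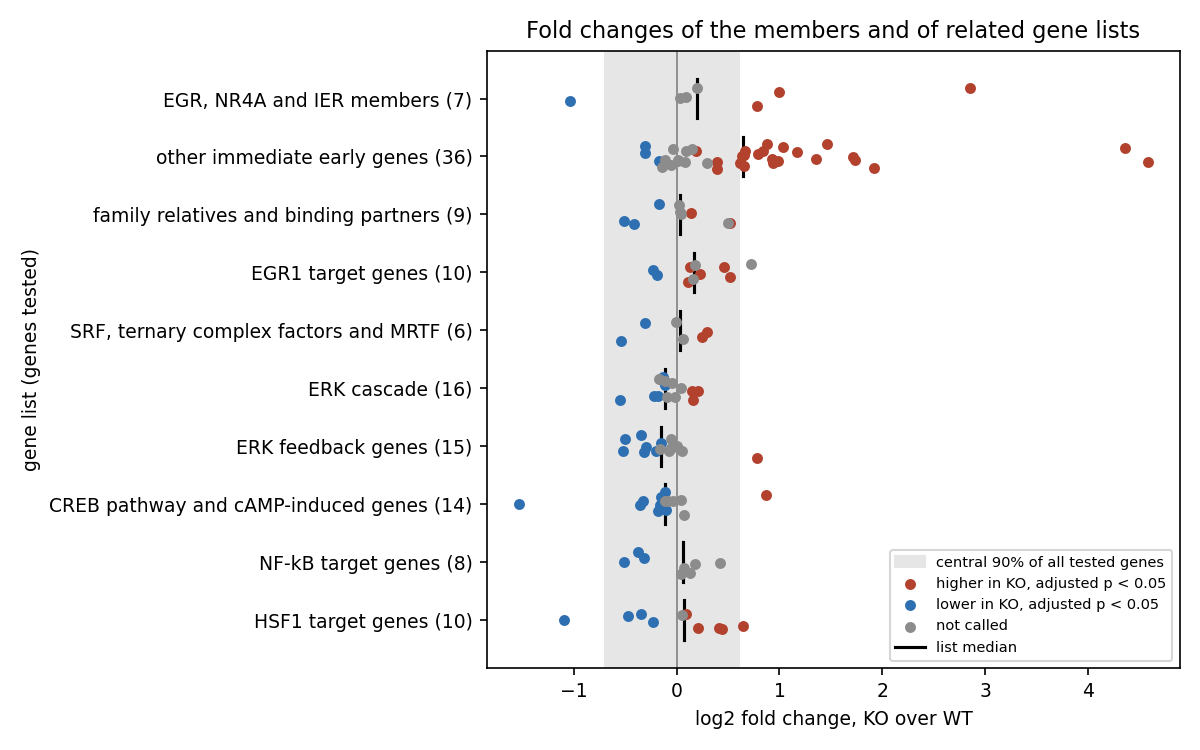
Log2 fold change of KO over WT for each tested gene (points) of the members and of 9 related lists, with list medians as black lines, genes called higher in red, lower in blue, not called in grey, and the central 90% of all tested genes as a grey band. The members spread from -1.03 (NR4A2) to 2.85 (EGR1), and the other immediate early genes have the highest median, 0.65.

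Markers of other cell types were checked for the same libraries. Of 7 tested fibroblast markers 3 fell, COL1A1 from 103 ± 1.62 to 71.6 ± 5.19 CPM, and the list summed to 835 to 961 CPM in KO and 956 to 1032 CPM in WT. Of 5 endothelial and blood markers, 2 rose and 3 fell, with VWF and CDH5 under 2 CPM in both groups and a sum of 81.7 to 84.5 CPM in KO and 73.3 to 77.4 CPM in WT. Of 4 neural progenitor markers 1 rose and 2 fell: STMN2 rose from 2.80 ± 0.235 to 14.2 ± 1.39 CPM and MAP2 and DCX fell by 0.69 and 0.68 (sum 401 to 456 CPM in KO and 417 to 436 CPM in WT). Both tested trophoblast and amnion markers fell, GABRP from 22.7 ± 2.44 to 6.62 ± 0.419 CPM and KRT7 by 0.63 (sum 10.9 to 14.6 CPM in KO and 28.3 to 36.0 CPM in WT). Most of the fibroblast sum was THY1 (730 CPM in KO, 729 in WT). Most of the neural sum was NES (397 and 398 CPM), and most of the endothelial and blood sum was KDR (69.35 and 64.12 CPM). These 3 sums follow those genes and do not measure the share of a cell type. The part of these markers in the members' values was not tested.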

How the data were processed

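PolyA RNA libraries (5 KO, 5 WT; paired-end, NovaSeq, per the labels) were grouped by title. The authors deposited raw counts per gene, with no normalization. Per the submitters' processing notes, hg38, DESeq2 and R 3.6.3 were used; the sources used here name no aligner, counter, annotation or strandedness. The authors' deposited comparison table gives a mean normalised signal, log2 fold changes and standard errors, a score (their quotient) and p-values; it supplied gene symbols and the log2 values named as the authors'.

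Counts were fitted with edgeR 4.0.16 under R 4.3.3 by the quasi-likelihood test, with group as the only term, TMM scaling and the filterByExpr filter, Benjamini-Hochberg adjusted over 19163 genes, with a threshold of 0.05. Log2 CPM used a prior count of 2. The fit was tested on simulated data. Transcript length, GC and positions are from GENCODE 29 (GRCh38), with 1 principal transcript a gene. Alternatives used DESeq2 1.42.0 and limma 3.58.1. Libraries of a group differed beyond sampling noise (chi-square per degree of freedom at least 3.59).

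The members and lists were chosen with earlier results of these data known. Named genes are the 9 members, KCNH2, up to 4 genes with the smallest p in each list, every gene of the partner and SRF lists, tested or not (EGR4 was not), and the 5 genes of at least 5 CPM most correlated with EGR1, NR4A1 and IER2 within groups. THY1 is named besides, as the largest part of the fibroblast sum.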

Additional observations from a re-analysis of the deposited data

Results flagged for a closer look

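IER5 in WT replicate 4 measured 32.4 CPM, far from the other 4 WT libraries (37.8 to 38.8 CPM), with a gap of 0.839 of the group's range against a critical value of 0.71. Of 18 groups of 5 libraries checked (9 members in KO and WT), this was the 1 that exceeded it, and chance gives about 1 in 20. Without WT replicate 4 the log2 fold change of IER5 was -0.007 (edgeR adjusted p = 0.965).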

How the results depend on the processing

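EGR1, EGR2, IER3 and NR4A2 kept their direction and their call in each of 18 alternatives (scaling, test, filter, replicate block, length and GC offset, each library left out, and KO replicate 3 with WT replicates 2 and 3 left out together): log2 fold changes were 2.81 to 2.92, 0.84 to 1.15, 0.59 to 0.93 and -1.10 to -0.96. Against a log2 fold change of 1, 1 member was higher and 0 lower, and 83 and 93 of all genes; 4 of 7 members had passed the test against 0. Leaving out 1 library gave 3 to 5 members higher; the 5, without KO replicate 1, added NR4A1 and EGR3, and EGR3 entered that fit only through its KO counts, so its call there is no added support. IER5, not called, changed sign without KO replicate 3 (-0.044), without WT replicate 4 (-0.007) and with 3 libraries left out (-0.014), and ranged from -0.044 to 0.126 with 1 library left out; the cause was not tested. EGR3 passed the filter in 7 alternatives, again through KO alone, at 1.93 to 2.40, which says nothing about its stability. Of 324 recomputed list counts, 303 stayed within 1.5 times. The mean of log2 CPM over the members gave a log2 difference of 0.64, against 0.37 from their summed CPM. Same-numbered libraries deviated together with r of 0.173, -0.157, 0.698, 0.198 and 0.176 (replicates 1 to 5), so the numbers were not taken as pairs; 1 of the 5 KO libraries correlated best with its own number. With a replicate block, 4258 genes were higher and 4300 lower (4201 and 4615 without), and 3 and 1 members. Counts limit EGR3 and NR4A3.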
